A study of Mus musculus with 12 samples.

Results

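The interferon-inducible GTPases of mouse form 2 related families, the guanylate-binding proteins (GBP) and the immunity-related GTPases (IRG). Described here are 10 of their genes, Gbp2, Gbp3, Gbp5, Gbp7, Gbp9, Igtp, Irgm1, Irgm2, Iigp1 and Tgtp2. They were chosen by name, with earlier results of these data known, among the 28689 genes of an RNA-seq table. The libraries were made from MLECs (mouse lung endothelial cells), which were isolated from lungs of adult mice with magnetic beads against CD31 and then ICAM2 and used at passages 1 to 3. dKO mice carried VE-CAD-CreERT2, a Cre recombinase driven by the VE-Cadherin promoter and activated by tamoxifen, together with Sp1 fl/fl and Sp3 fl/fl, so that the transcription factors Sp1 and Sp3 are deleted in endothelial cells. CTR mice were Cre-negative Sp1 fl/fl Sp3 fl/fl littermates according to the study's methods, whereas their genotype reads WT in the sample labels; all mice received tamoxifen. Each group held 6 libraries, and the sources do not state how many mice stood behind a library, so that p-values measure the spread between these libraries only. Values are FPKM (fragments counted per kilobase of a gene, relative to the library's total), and each library held between 15523054 and 17938286 fragments.

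GBP and IRG proteins are large GTPases of cell-autonomous immunity, which interferons induce in most cell types. They gather on the membranes of vacuoles that hold bacteria or parasites, where the effector IRG proteins disrupt the vacuole and GBP proteins help to expose its content to inflammasomes. Interferon-gamma acts on such genes through GAS elements in their promoters, while type I interferon acts through interferon-stimulated response elements (ISRE), which factors of the IRF family, such as IRF9 and IRF1, recognise.

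Sp1 lay between 19.4 and 23.7 FPKM in CTR libraries and between 8.42 and 12.1 FPKM in dKO libraries, with no overlap (log2 fold change −0.95, adjusted p = 5.68e-06 from limma). Sp3 lay between 24.2 and 31.1 FPKM in CTR and between 22.5 and 26.9 FPKM in dKO (log2 fold change −0.14, adjusted p = 0.0902 from limma), so the assignment of the libraries rests on the labels and on Sp1. These are values of whole genes, in which fragments of the deleted exons cannot be told from the rest, so they are an incomplete check of the deletion. Endothelial markers were present in every library, and so were collagen genes (Col1a1 at 1173 ± 65.1 FPKM in CTR) and the macrophage gene Lyz2 (746 ± 160 FPKM in CTR; SD, n = 6), so the cultures were not endothelial RNA alone. The labels' extraction text speaks of retinas, but 6 of 6 retina markers lay under the low-value filter.

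Stretches of promoter are shown first, because the members share letters there. The genes were chosen as interferon-inducible, and interferons act through GAS and ISRE elements, so these letters are not independent of the choice. RefSeq (GRCm38.p6) promoters of 300 bases, from 250 before to 50 after the annotated start, were examined for 8 of the 10 genes. Gbp9 and Iigp1 were not analysed here. Each promoter that holds a stretch shown matched once on the chromosome of its gene in GRCm39, the only chromosome searched for it. Coordinates of the stretches are given in that build. The letters searched, on both strands, were GAAANNGAAA for the ISRE core, TTCNNNGAA for GAS and GGGCGG for the GC box, the motif that Sp1 and Sp3 bind. Positions are counted from the start of the gene, with −1 for the last base before it. The following 80 bases of each promoter, 5′ to 3′ along the gene, surround the ISRE core nearest the start, with ISRE cores and GAS elements in capitals. The 4 IRG genes come first.
Igtp, chr11:58090313-58090392, plus strand: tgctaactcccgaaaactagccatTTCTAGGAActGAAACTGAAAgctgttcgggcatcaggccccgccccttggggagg
Irgm2, chr11:58105704-58105783, plus strand: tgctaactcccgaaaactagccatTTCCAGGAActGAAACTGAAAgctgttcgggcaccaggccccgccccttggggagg
Tgtp2, chr11:48955065-48955144, minus strand: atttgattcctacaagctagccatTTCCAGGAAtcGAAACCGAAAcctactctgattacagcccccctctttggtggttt
Irgm1, chr11:48762227-48762306, minus strand: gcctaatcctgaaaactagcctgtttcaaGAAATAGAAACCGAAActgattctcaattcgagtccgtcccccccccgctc

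In 3 of these genes, Igtp, Irgm2 and Tgtp2, a GAS element stood 2 bases before an ISRE core on the strand of the gene, starting at −45, −75 and −81 respectively. This pair, noticed after the sequences were seen, occurred in 5 of 32851 RefSeq promoters (0.0152%). The other 2 belonged to Tgtp1 and Gm12185, which are also IRG genes of chromosome 11. The stretches of Igtp and Irgm2, neighbours whose annotated loci overlap, were identical at 78 of 80 bases, and those of Igtp and Tgtp2 at 49 of 80. Irgm1 held no GAS element in its promoter, but it held 2 ISRE cores that overlap each other, starting at −30 and −24. In the GENCODE annotation of GRCm39 the stretches of Igtp and Irgm1 lay within exons of their genes, that of Irgm2 in an intron of the longer Irgm2 model, and that of Tgtp2 upstream of the gene, in an intron of Or2v1 on the opposite strand.

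The 4 GBP genes whose promoters were examined, all of the chromosome 3 cluster, held the ISRE core on the opposite strand, where it reads TTTC, 2 bases and TTTC.
Gbp2, chr3:142326330-142326409, plus strand: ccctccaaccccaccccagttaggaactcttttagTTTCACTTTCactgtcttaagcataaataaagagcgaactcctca
Gbp3, chr3:142265731-142265810, plus strand: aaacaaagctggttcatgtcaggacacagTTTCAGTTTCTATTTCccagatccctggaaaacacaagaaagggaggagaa
Gbp7, chr3:142236009-142236088, plus strand: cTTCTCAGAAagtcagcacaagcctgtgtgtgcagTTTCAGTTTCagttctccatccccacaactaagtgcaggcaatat
Gbp5, chr3:142202495-142202574, plus strand: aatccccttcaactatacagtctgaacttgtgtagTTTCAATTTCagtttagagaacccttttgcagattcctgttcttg

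Gbp3 held 2 such cores that overlap, starting at −45 and −39, whereas Gbp2 and Gbp7 held 1 each, at −59 and −53. In Gbp5 the core lay farther upstream, at −165, and GAS elements stood outside the stretch shown, at −245 and −52. Gbp7 held GAS elements at −106 and −87, the latter shown in capitals. The alternative promoter of Gbp3 held none of the 3 motifs. The stretches of Gbp2, Gbp3, Gbp5 and Gbp7 overlapped annotated exons of their genes in part or in full. In all, 8 of 8 genes held an ISRE core in at least 1 promoter, as did 3.99% of all 27025 genes with a promoter. A GAS element was held by 5 of 8, against 9.55% of genes, and a GC box by 4 of 8 (Gbp7, Igtp, Irgm1 and Irgm2), against 38.2% of genes. Counted by promoter, the shares were 3.44%, 8.30% and 35.7% of 32851. No GAS element overlapped an ISRE core.

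All 10 GTPase genes were higher in dKO than in CTR MLECs at an adjusted p under 0.05 (limma on log2(FPKM + 1), adjusted by Benjamini-Hochberg over the 12467 genes tested). This threshold was passed upward by 20.4% and downward by 32.6% of all genes tested. Earlier results of these data were known when the 10 genes were chosen, so their counts are not those of an unselected set. In each of the 10, every dKO library lay above every CTR library, a separation found in 11.3% of genes tested; the two-sided exact permutation p of each was 0.00216, the smallest that 6 libraries against 6 allow. The median log2 fold change of the 10 was 1.33, from 0.96 for Gbp5 to 1.92 for Tgtp2, beside −0.10 over all genes tested. Of the 10, 3 genes (Gbp3, Iigp1 and Tgtp2) also had a log2 fold change over 1.5, against 1.43% of genes tested. Genes were tested if they had at least 1 FPKM in at least 6 of the 12 libraries: 8 of the 10 did so in every CTR library, whereas Gbp5 and Tgtp2 lay under 1 FPKM in all CTR libraries and passed through dKO libraries only, so their calls follow in part from the filter. With median-of-ratios scaling, 3213 genes were higher and 3012 lower, against 2549 and 4065 with FPKM as deposited, and all 10 GTPase genes were higher under either. Since these are bulk libraries, more cells of a type that expresses these genes and more RNA per cell cannot be told apart.

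**Figure D1:**
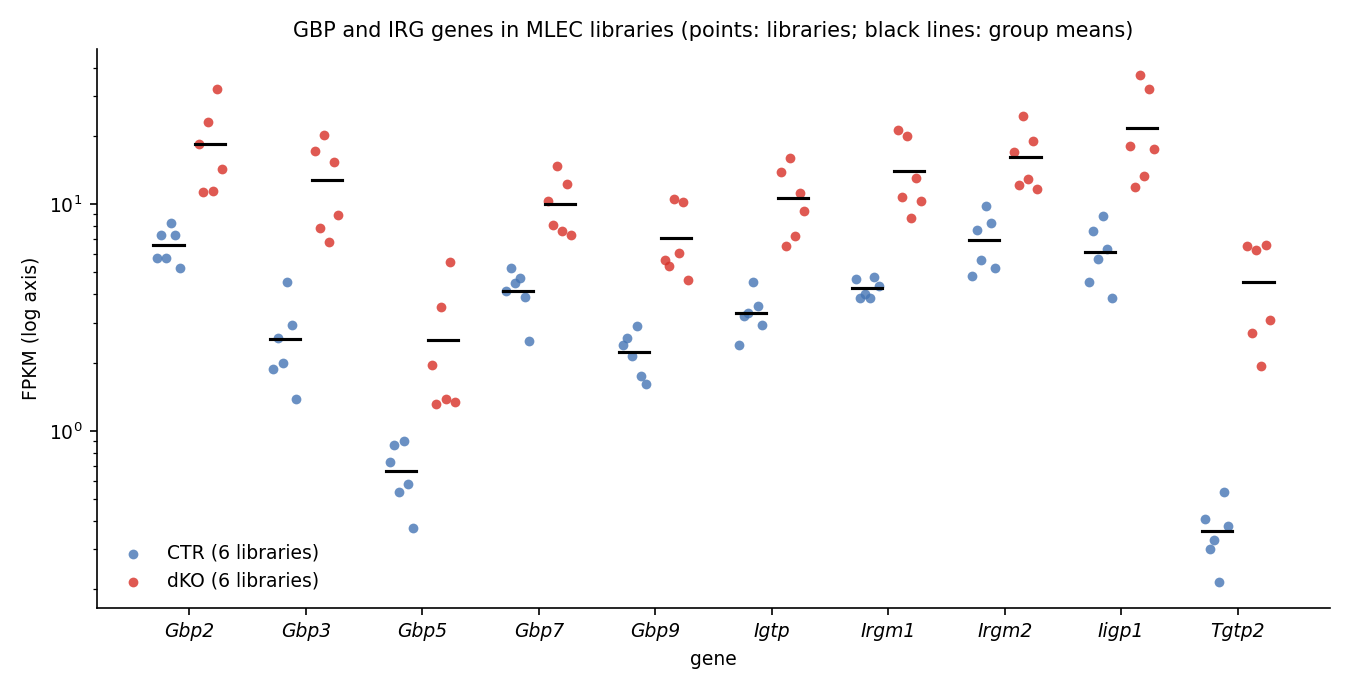
FPKM (log axis) of the 10 GBP and IRG genes in the 6 CTR and 6 dKO libraries; each point is a library and each black line a group mean. In every gene the dKO points lie above the CTR points, with the widest gap for Tgtp2 (0.214 to 0.537 FPKM in CTR and 1.94 to 6.57 FPKM in dKO).

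The GBP genes of the chromosome 3 cluster come first, in their order along GRCm39. Gbp5 (ENSMUSG00000105504, chr3:142199739-142228105), which in macrophages promotes assembly of the NLRP3 inflammasome, was the lowest GBP gene described. In CTR libraries it lay between 0.372 and 0.897 FPKM with a median of 0.654, and in dKO libraries between 1.31 and 5.53 FPKM with a median of 1.67. Only dKO5 and dKO3 were above 2 FPKM, and the other 4 dKO libraries were closely grouped. The log2 fold change was 0.96 ± 0.24 (SE, the standard error of the fit, limma adjusted p = 0.00427), and 1.74 with limma-voom on recovered fragments, since the pseudocount of 1 understates changes at this level.

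Gbp7 (ENSMUSG00000040253, chr3:142236044-142255910) lay between 2.48 and 5.23 FPKM in CTR (median 4.30) and between 7.33 and 14.7 FPKM in dKO (median 9.18). Its mean rose from 4.15 ± 0.947 to 10.04 ± 2.96 FPKM (SD, n = 6), a ratio of 2.42. The log2 fold change was 1.08 ± 0.17 (SE, limma adjusted p = 0.000246).

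Gbp3 (ENSMUSG00000028268, chr3:142265731-142278979) was the GBP gene with the largest change. It lay between 1.39 and 4.54 FPKM in CTR (median 2.28) and between 6.80 and 20.2 FPKM in dKO (median 12.1), and CTR4 stood closest to the dKO libraries. The mean rose from 2.55 ± 1.11 to 12.7 ± 5.60 FPKM (SD, n = 6), a ratio of 4.99, and the log2 fold change was 1.90 ± 0.27 (SE, limma adjusted p = 9.1e-05). Next to it lies Gbp2b, the gene once called Gbp1, which held 1 fragment over all CTR libraries and 2 over all dKO libraries, so it was not detectable as expressed in either group.

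Gbp2 (ENSMUSG00000028270, chr3:142326349-142343779), which is recruited to vacuoles of Toxoplasma, was the most abundant GBP gene in both groups. It lay between 5.21 and 8.26 FPKM in CTR (median 6.54) and between 11.3 and 32.0 FPKM in dKO (median 16.3), the highest value being that of dKO5. Its log2 fold change was 1.27 ± 0.22 (SE, limma adjusted p = 0.000407).

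Gbp9 (ENSMUSG00000029298, chr5:105224332-105287452) belongs to the chromosome 5 cluster, and its annotated locus overlaps those of Gbp8 and Gbp4. It lay between 1.60 and 2.89 FPKM in CTR (median 2.26) and between 4.61 and 10.5 FPKM in dKO (median 5.87), where dKO3 and dKO5 stood above 10 FPKM and the other 4 libraries at or under 6.06 FPKM. The log2 fold change was 1.28 ± 0.18 (SE, limma adjusted p = 9.9e-05). Transcripts of Gbp9 share at least 95% identity over at least 150 bases with Gbp4, Gbp6, Gbp8, Gbp10 and Gbp11, so the split of fragments among these genes is uncertain.

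The IRG genes fall into regulators and effectors. The regulators Irgm1, Irgm2 and Igtp (also called Irgm3) sit on the membranes of the cell itself and hold the effectors inactive there. Irgm1 (ENSMUSG00000046879, chr11:48752795-48763164) had the smallest spread of the 10 genes in CTR relative to its mean, between 3.84 and 4.75 FPKM (median 4.17). In dKO it lay between 8.64 and 21.3 FPKM (median 11.8), with dKO1 and dKO3 at 19.99 FPKM or above and the other 4 libraries at 12.98 FPKM or below. The log2 fold change was 1.45 ± 0.19 (SE, limma adjusted p = 4.8e-05).

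Irgm2 (ENSMUSG00000069874, chr11:58090444-58113615) was the most abundant of the 10 genes in CTR and had the smallest ratio between the groups. It lay between 4.84 and 9.79 FPKM in CTR (median 6.68) and between 11.7 and 24.5 FPKM in dKO (median 14.9), a ratio of means of 2.34 and a log2 fold change of 1.11 ± 0.20 (SE, limma adjusted p = 0.000464). Igtp (ENSMUSG00000078853, chr11:58089840-58098417) lay between 2.38 and 4.53 FPKM in CTR (median 3.27) and between 6.50 and 16.0 FPKM in dKO (median 10.2). Its log2 fold change was 1.39 ± 0.19 (SE, limma adjusted p = 7.7e-05). The loci of Igtp and Irgm2 overlap on the same strand, and their transcripts share 214 bases at 99.1% identity, so fragments in that stretch could have been counted for either.

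The effectors Iigp1 (also called Irga6) and Tgtp2 (also called Irgb6) are among the IRG proteins that load on the vacuole of Toxoplasma. Iigp1 (ENSMUSG00000054072, chr18:60506680-60525706) was the most abundant of the 10 genes in dKO. It lay between 3.84 and 8.90 FPKM in CTR (median 6.06) and between 11.9 and 37.2 FPKM in dKO (median 17.8), with dKO3 and dKO5 above 30 FPKM and the other 4 libraries at or under 18.04 FPKM. The log2 fold change was 1.58 ± 0.27 (SE, limma adjusted p = 0.000366).

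Tgtp2 (ENSMUSG00000078921, chr11:48948021-48955033) went from the lowest level of the 10 in CTR to a level above Gbp5 in every dKO library. It lay between 0.214 and 0.537 FPKM in CTR (median 0.355), on 11 to 27 fragments a library, and between 1.94 and 6.57 FPKM in dKO (median 4.68), on 102 to 338 fragments. The ratio of means was 12.5 and the log2 fold change 1.92 ± 0.23 (SE, limma adjusted p = 2.4e-05), or 3.49 with limma-voom on recovered fragments. Tgtp1, a copy 99.8% identical over 2811 bases, stood at 0.0906 ± 0.0547 FPKM in CTR and 1.06 ± 0.575 FPKM in dKO (SD, n = 6), and how fragments of the pair were shared out is not known.

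By mean FPKM, which is scaled to gene length, the order in CTR was Irgm2, Gbp2, Iigp1, Irgm1, Gbp7, Igtp, Gbp3, Gbp9, Gbp5 and Tgtp2. Only Gbp9 and Gbp5 of the neighbours in this order had ranges over libraries that did not overlap. In dKO the order was Iigp1, Gbp2, Irgm2, Irgm1, Gbp3, Igtp, Gbp7, Gbp9, Tgtp2 and Gbp5, and the ranges of all neighbours overlapped. Gbp7 was nevertheless above Gbp9, and Tgtp2 above Gbp5, in 6 of 6 dKO libraries.

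Relative to their means, most of the 10 genes varied more among dKO than among CTR libraries. The coefficient of variation of a gene lay between 9.68% (Irgm1) and 43.8% (Gbp3) in CTR. In dKO it lay between 29.5% (Gbp7) and 68.0% (Gbp5). It was higher in dKO for each of the 10 genes, but hardly so for Gbp3 (44.1% in dKO) and Irgm2 (28.6% in CTR and 30.8% in dKO). The share of all genes with a higher coefficient in dKO was not determined. The median of the 10 genes above their CTR means, on the scale of log2(FPKM + 1), was 1.92 in dKO3, 1.90 in dKO5, 1.41 in dKO1, 1.07 in dKO6, 0.92 in dKO4 and 0.86 in dKO2. dKO3 and dKO5 were among the 3 highest dKO libraries for 10 of 10 genes, and dKO1 for 9 of 10. Within these, dKO3 was highest for 6 genes, dKO5 for Gbp2, Gbp5 and Tgtp2, and dKO1 for Irgm1. Among CTR libraries, CTR4 was highest for 7 genes and CTR6 lowest for 6. Without dKO3 the log2 fold changes of the 10 genes ran from 0.87 to 1.82 and without dKO5 from 0.76 to 1.83, with 10 of 10 higher at an adjusted p under 0.05 from limma in both fits.

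**Figure D2:**
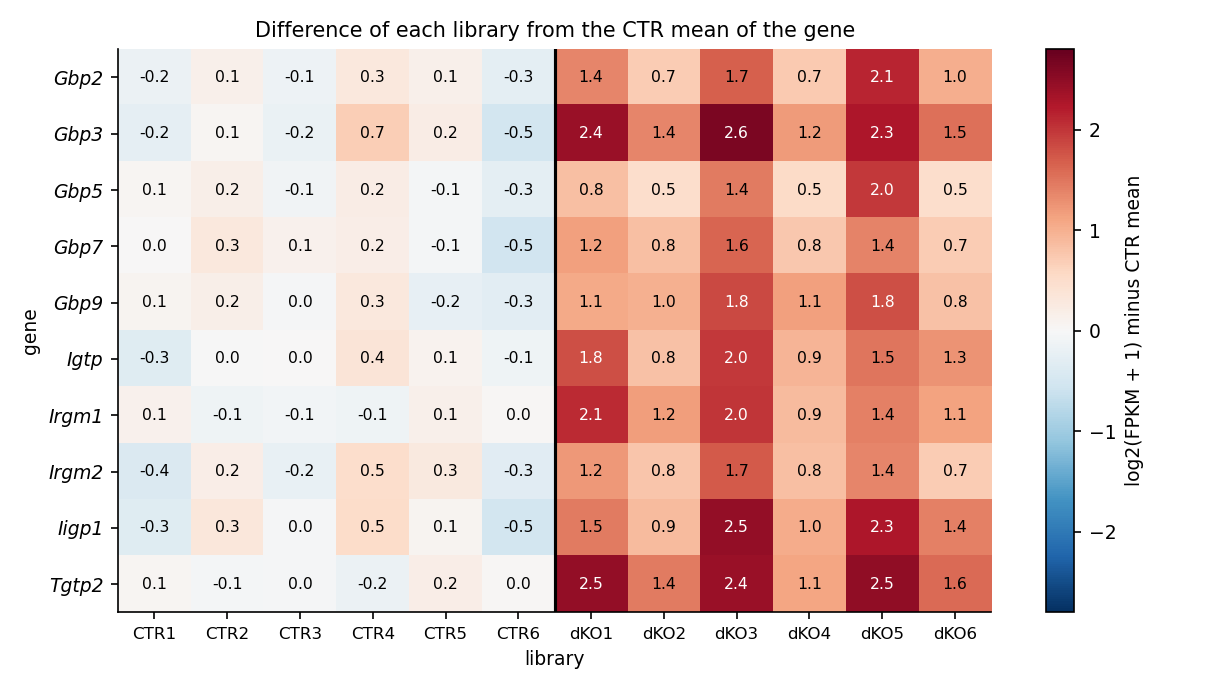
Difference of each library (columns) from the CTR mean of the gene (rows) in log2(FPKM + 1), with CTR libraries left and dKO libraries right of the line. All dKO cells are positive, with the darkest columns for dKO3 and dKO5, whose medians over the 10 genes are 1.92 and 1.90.

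Other genes of the 2 families, together with the giant GTPase genes Gvin1, Gvin2 and Gvin3, were examined from a list of 24. Of this list, 18 were in the table and 9 passed the filter. Of these 9, 7 rose in dKO past the same threshold and 0 fell, against 20.4% and 32.6% of all genes tested. The median log2 fold change of the 9 was 0.89. The largest changes were those of the IRG genes Gm12250 (also called Irgb10), from 0.373 ± 0.265 to 6.34 ± 4.996 FPKM, and Ifi47 (also called Irgd), from 1.76 ± 0.383 to 9.65 ± 3.16 FPKM (SD, n = 6), with log2 fold changes of 2.22 and 1.90 (adjusted p = 0.000105 and 4.1e-06 from limma). The value of Gm12250 in dKO3 was 15.9 FPKM. 9930111J21Rik2 (0.97), the giant GTPase genes Gvin1 (0.94) and Gvin2 (0.89), F830016B08Rik (0.73) and Irgq (0.29) were also higher on the log2 scale. Gm12250, Gvin1 and Gvin2 lay under 1 FPKM in all CTR libraries and passed the filter through dKO libraries only, so these 3 of the 7 calls follow in part from the filter.

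Gbp8 and Gvin3 were tested and did not pass. Gbp8, whose locus overlaps that of Gbp9, stood at 1.92 ± 0.737 FPKM in CTR and 1.56 ± 0.928 FPKM in dKO (SD, n = 6; log2 fold change −0.22 ± 0.22, SE, limma adjusted p = 0.417). Its groups overlapped, and dKO5, which was among the highest libraries for Gbp9, was the lowest of all 12 libraries for Gbp8, at 0.531 FPKM. Gvin3 had a log2 fold change of 0.02 ± 0.26 (SE, limma adjusted p = 0.942).

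A further 9 family genes lay under the filter. A limma-voom fit to the recovered fragments of the whole table, added after the data had been seen, called 11.1% of its genes higher and 16.5% lower. It found 5 of these 9 higher in dKO: Tgtp1 (log2 fold change 3.42, adjusted p = 0.000166), Gm12185 (2.48, adjusted p = 0.00274), Gbp4 (1.74, adjusted p = 0.000147), Gbp6 (1.55, adjusted p = 0.0117) and 9930111J21Rik1 (1.18, adjusted p = 0.00361). Gbp2b, Gbp10, Gbp11 and Irgc did not pass, on 1 to 35 fragments over all CTR libraries and 2 to 67 over all dKO libraries. Tgtp1 and Gm12185 are the genes that share the paired GAS and ISRE letters with Igtp, Irgm2 and Tgtp2, and a link of these letters to the change was not tested. Gm12185 held 24 fragments over all CTR and 129 over all dKO libraries, and its annotated locus overlaps that of Tgtp1. With Tgtp2 it shares 243 bases at 99.2% identity, so the split of fragments among Gm12185, Tgtp1 and Tgtp2 is uncertain.

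**Figure D3:**
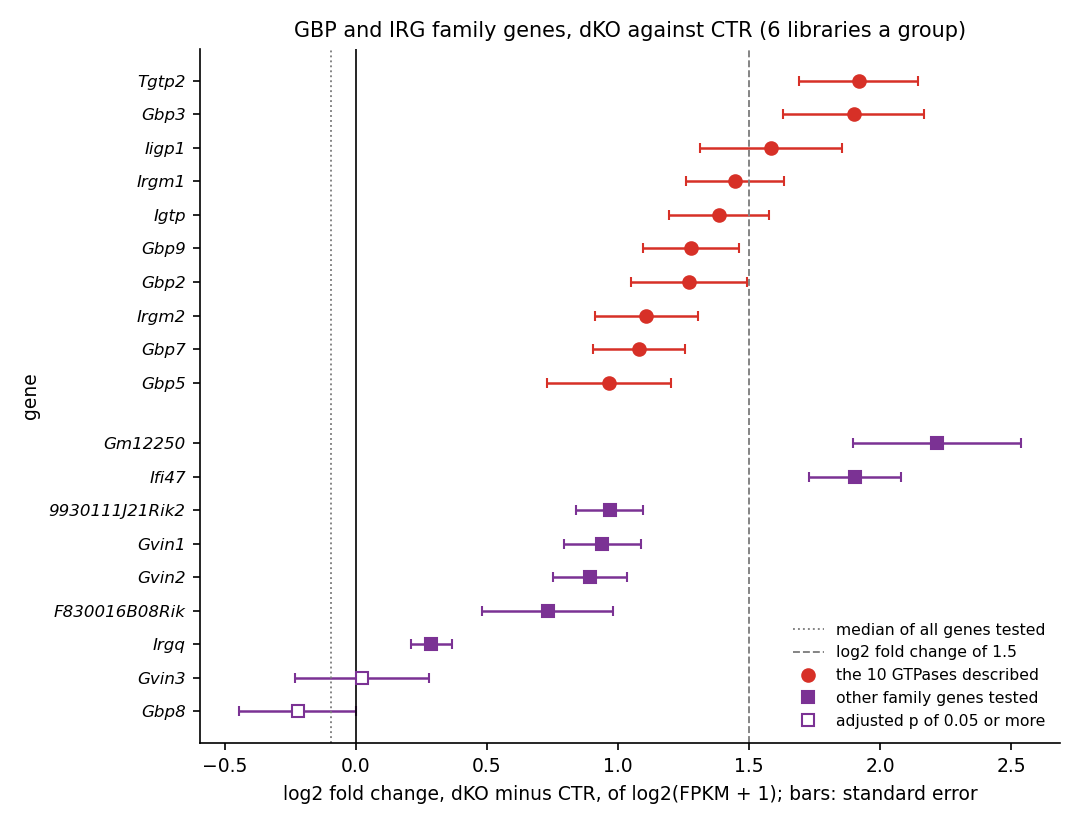
Log2 fold change (dKO minus CTR, in log2(FPKM + 1)) with its standard error for the 10 GTPase genes (circles) and the 9 other listed GTPase genes that passed the filter (squares, Gvin1, Gvin2 and Gvin3 included). Open symbols have an adjusted p of 0.05 or more, and the dotted line is the median of all genes tested, −0.10. The 10 genes run from 0.96 to 1.92, and of the others only Gbp8 and Gvin3 do not pass.

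Upstream of these genes, Ifnb1 was the only interferon gene examined. Of 12 ligands and inducing cytokines, 6 were in the table and 2 passed the filter. Il15 was higher, from 1.34 ± 0.508 to 2.39 ± 0.322 FPKM (SD, n = 6; log2 fold change 0.56, adjusted p = 0.00388 from limma), and Il18 had a log2 fold change of −0.26 (adjusted p = 0.280 from limma). Ifnb1, the gene of interferon-beta, held 1 fragment over the CTR libraries and 5 over the dKO libraries, which is too few for a comparison. Ifng, Ifna1, Ifna2, Ifna4, Ifnk and Ifne were not analysed here.

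Of 10 receptors and signal transducers listed, all were tested, of which 5 rose and 1 fell past the same threshold. Over all genes tested, 20.4% rose and 32.6% fell. Both chains of the interferon-gamma receptor rose, Ifngr1 from 43.2 ± 5.48 to 62.6 ± 2.98 FPKM and Ifngr2 from 19.9 ± 1.75 to 32.4 ± 3.89 FPKM (SD, n = 6), with log2 fold changes of 0.53 and 0.67. Stat2 and Irf9, which act together at ISRE, rose as well, with log2 fold changes of 1.25 and 0.71, and in each of these 4 genes every dKO library lay above every CTR library. Ifnar1, a chain of the type I interferon receptor, had a log2 fold change of 0.29 (adjusted p = 0.0228 from limma), which did not pass after rescaling to TPM (adjusted p = 0.0559 from limma). Jak2, the kinase bound to Ifngr2, fell by 0.71 on the log2 scale, from 32.8 ± 4.33 to 19.7 ± 3.02 FPKM (SD, n = 6; adjusted p = 0.000173 from limma). Ifnar2, Jak1, Tyk2 and Stat3 did not pass, with log2 fold changes between −0.17 and 0.16.

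Among 7 tested IRF factors and partners, 5 were higher and 1 lower, against 20.4% and 32.6% of all genes tested. Irf7, which amplifies type I interferon responses, went from 1.77 to 3.41 FPKM across CTR libraries to 8.002 to 36.6 FPKM across dKO libraries (log2 fold change 2.13, adjusted p = 7.9e-05 from limma). Nlrc5, the activator of MHC class I genes, had a log2 fold change of 1.09 and Batf of 0.80. Nlrc5 lay under 1 FPKM in all CTR libraries, so its call follows in part from the filter. Irf1, which acts on promoters of GBP genes in the response to interferon-gamma, changed less (0.56, adjusted p = 0.0105 from limma). Its groups overlapped, and dKO5 was highest for Irf1, at 15.7 FPKM. The same library was highest for Gbp2 and Gbp5, whereas dKO3 was highest for Gbp3, Gbp7 and Gbp9. Whether Irf1 had a part in these levels was not tested. Irf8 had a log2 fold change of 0.53, Irf2 did not pass (0.19), and Irf3 fell by 0.30 on the log2 scale with every dKO library below every CTR library (adjusted p = 0.000205 from limma).

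Of 7 inhibitors of interferon signalling tested, 2 were higher and 2 lower, shares near the 20.4% and 32.6% of all genes tested. Usp18, an interferon-induced inhibitor of the type I receptor, rose from 1.01 ± 0.255 to 10.5 ± 6.01 FPKM (SD, n = 6; log2 fold change 2.37, adjusted p = 2.1e-05 from limma), and the phosphatase gene Ptpn6, abundant in leukocytes, had a log2 fold change of 1.25. Socs3 fell by 0.57 and Ptpn2 by 0.39 on the log2 scale (adjusted p = 0.00265 and 0.00667 from limma). Socs1, the main inhibitor of the interferon-gamma receptor, did not pass (−0.19, adjusted p = 0.267 from limma), nor did Ptpn11 (−0.03) and Pias1 (−0.08).

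Downstream of the 10 genes or beside them work further proteins, whose counts stand against the 20.4% of all genes tested that were higher and the 32.6% that were lower. The ATG conjugation machinery, which places these GTPases on the right membranes, had 3 of 10 tested genes higher, a share near that of all genes, and 0 lower: Atg7 (0.79), Gabarap (0.60) and Gabarapl2 (0.31) on the log2 scale. Atg3, Atg5, Atg12, Atg16l1, Map1lc3a, Map1lc3b and Gabarapl1 did not pass, with log2 fold changes between −0.15 and 0.36; with median-of-ratios scaling 5 of the 10 were higher. Of 8 proteins that act on vacuoles with them, Lgals3 (1.26), Rnf213 (1.06) and Trim21 (0.46) were higher and Ubqln1 was lower (−0.29, adjusted p = 0.0120 from limma), whereas Sqstm1, Traf6, Rab5a and Lgals8 did not pass, with log2 fold changes between −0.20 and 0.11. Ubqln1 did not pass with median-of-ratios scaling (adjusted p = 0.0650 from limma). Of 5 inflammasome genes tested, Casp1 (1.28), Pycard (0.70) and Aim2 (0.64) were higher and Casp4 (0.12) and Gsdmd (0.20) did not pass. Nlrp3, under the filter, went from 0.363 ± 0.133 to 1.39 ± 0.684 FPKM (SD, n = 6). Il1b, also under the filter, held 1 fragment over all CTR and 109 over all dKO libraries, of which 94 were in dKO5, and its groups overlapped.

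**Figure D4:**
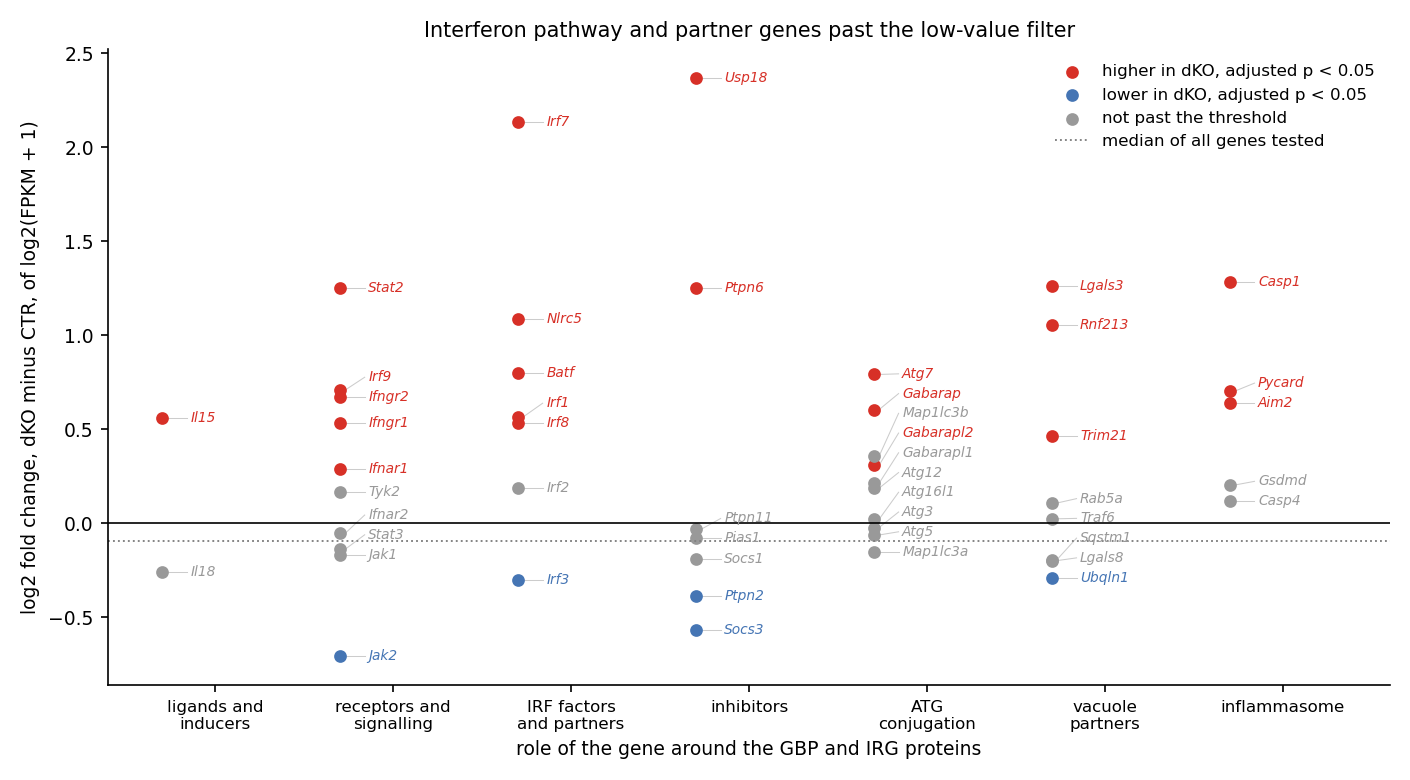
Log2 fold change (dKO minus CTR, in log2(FPKM + 1)) of pathway and partner genes that passed the filter, grouped by role; red genes were higher and blue genes lower at an adjusted p under 0.05. Usp18 (2.37) and Irf7 (2.13) stand highest and Jak2 (−0.71) lowest.

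Markers of other cells differed between the groups in both directions. Of 10 macrophage markers, 9 were higher and 1 (Marco) lower, with a median log2 fold change of 1.90. Fcgr1, among the 9, lay under 1 FPKM in all CTR libraries, so its call follows in part from the filter. For comparison, 20.4% of all genes tested were higher and 32.6% lower. The summed FPKM of the 10 macrophage markers lay between 818 and 1364 in CTR and between 2337 and 5352 in dKO. The 6 general leukocyte markers were all higher, with sums between 63.6 and 95.2 FPKM in CTR and between 119 and 286 FPKM in dKO. Of 12 markers of T, NK and B cells (T and NK cells are the usual source of interferon-gamma), 9 were in the table and 0 passed the filter. Cd3d, Cd3e and Cd8a were at 0 in all CTR libraries and held at most 6 fragments each over all dKO libraries, whereas Cd4 went from 0.0730 ± 0.0416 to 1.32 ± 0.369 FPKM (SD, n = 6). Of the 11 endothelial markers, 10 were also higher, with a median of 0.83 and sums between 194 and 314 FPKM in CTR and between 364 and 490 FPKM in dKO. Fibroblast markers went the other way in sum, between 2180 and 2777 FPKM in CTR and between 869 and 1735 FPKM in dKO, with no overlap. Of 7 tested, the collagen genes Col1a1, Col1a2 and Col3a1 were lower, Dcn was higher, and Pdgfra, Pdgfrb and Tcf21 did not pass. Of 3 smooth muscle markers tested, Myh11 was higher (log2 fold change 0.57), whereas Acta2 (−0.52) and Cnn1 (−0.54) did not pass. Of 6 lung epithelial markers tested, 1 was higher and 0 lower.

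Library by library the order of these sums differed from that of the GTPase genes. dKO3 was highest for both the macrophage markers (5352 FPKM) and the summed 10 GTPase genes (176 FPKM). dKO5, next to dKO3 for the GTPase genes at 157 FPKM, was the lowest dKO library for macrophage markers (2337 FPKM) and for leukocyte markers (119 FPKM), and dKO6, next to dKO3 for macrophage markers at 3466 FPKM, summed to 88.4 FPKM over the GTPase genes. These sums rest on a few abundant genes, such as Lyz2 with 1415 FPKM of the sum in dKO5, and single markers differed. dKO5 was lowest of the dKO libraries for 6 of 10 macrophage and 4 of 6 leukocyte markers, but next to dKO3, as for the GTPase genes, for Adgre1 (39.1 FPKM) and Csf1r (13.1 FPKM). For endothelial markers, dKO3 had the lowest sum of the dKO libraries (364 FPKM) and was lowest for 6 of 11 markers. The highest endothelial sums were those of dKO4 (490 FPKM) and dKO5 (484 FPKM). The part of macrophages, or of any other cell type, in the change of the GTPase genes was not tested.

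**Figure D5:**
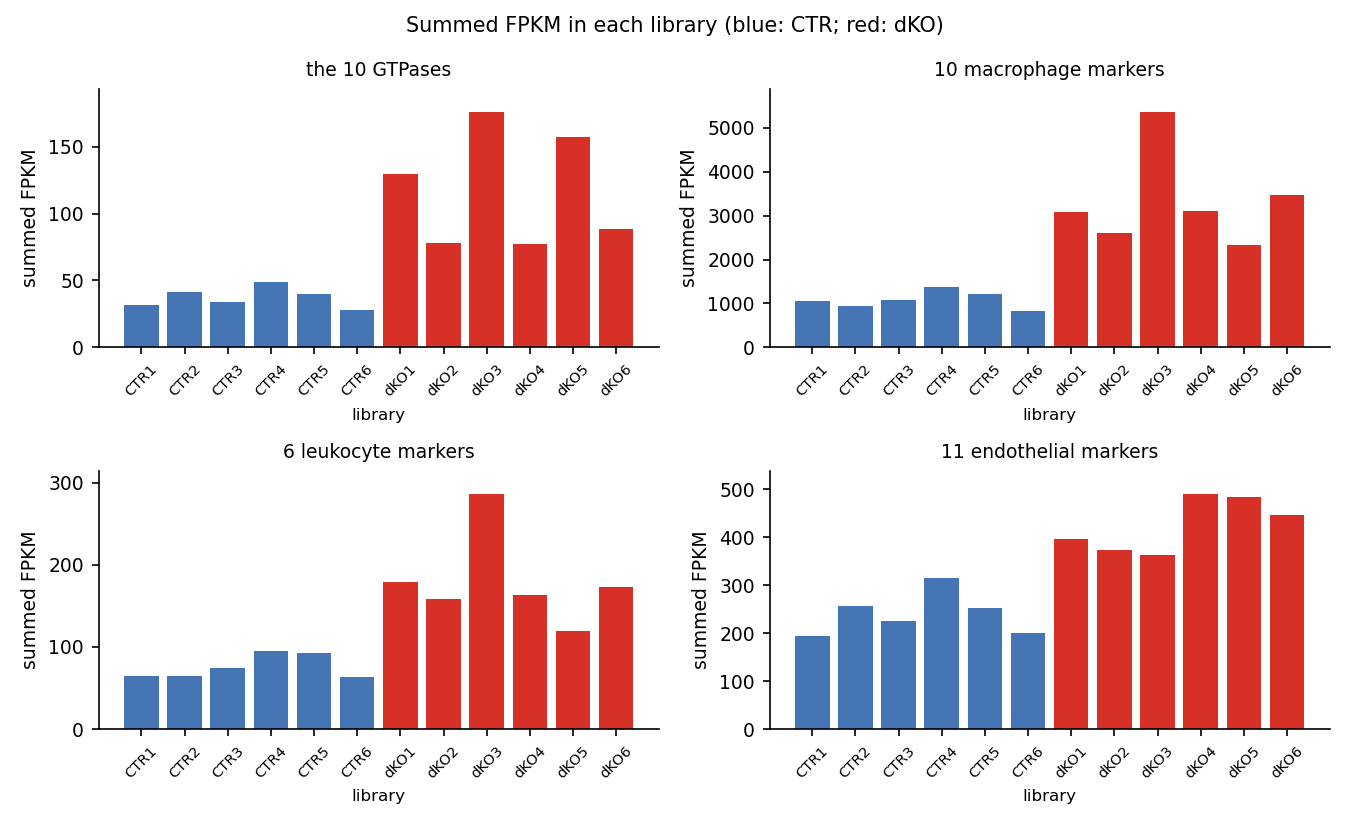
Summed FPKM in each of the 6 CTR (blue) and 6 dKO (red) libraries for the 10 GTPase genes and for macrophage, leukocyte and endothelial markers; bars start at 0. All 4 sums are higher in each dKO library than in each CTR library, but dKO5 is high for the GTPase genes (157) and lowest of the dKO libraries for summed macrophage (2337) and leukocyte (119) markers, though not for every single marker. dKO3, highest for the GTPase genes (176), is lowest of the dKO libraries for summed endothelial markers (364).

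Outside the lists, the 3 genes whose profile over the 12 libraries was most like the median profile of the 10 genes were Parp14, Samd9l and Slc15a3. Their root mean square differences from it, in log2(FPKM + 1), were 0.113, 0.144 and 0.1497, while those of the 10 genes themselves ran from 0.121 (Gbp2) to 0.398 (Tgtp2). Parp14 lay between 3.50 and 6.15 FPKM in CTR and between 8.39 and 20.6 FPKM in dKO, Samd9l between 5.44 and 8.70 FPKM and between 15.7 and 28.3 FPKM, and Slc15a3 between 1.83 and 2.65 FPKM and between 4.70 and 9.79 FPKM.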

How the data were processed

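Total RNA of MLECs was sequenced as paired-end reads. By the study's methods, reads went through FastQC and Trimmomatic, then STAR against mm39, and those that mapped uniquely were taken out with sambamba for another alignment; the submitters' processing notes name HISAT2 2.1.0, Bowtie2 2.2.3, TopHat2 and DESeq2. The counting program, annotation and strand setting are not given in the sources used here. The authors deposited FPKM values for 28689 genes, 1 column per library; 27706 were matched by Ensembl identifier to GENCODE vM39 (GRCm39), the source of symbols and positions. Columns carry the prefixes CTR and TAM with a number; CTR columns were matched to the control samples by name and number, and TAM columns to dKO by number and as the remaining prefix, although both groups received tamoxifen.

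Values were analysed as log2(FPKM + 1), with no further scaling, for 12467 genes (1 FPKM or more in 6 or more libraries). limma 3.58.1 in R 4.3.3 (lmFit, eBayes with trend, no covariates) gave fold changes and adjusted p-values. Exact permutation tests of single genes were two-sided and enumerated every assignment of 6 libraries to each group. Whole fragments behind the FPKM values were recovered by searching for library totals and gene lengths that make all 12 values of a gene whole within 0.02 fragments, which held for 28689 of 28689 genes; they rest on lengths found by this search, served for depth and for the limma-voom alternative, and cover counting error only. 1 fragment on 2 kb was worth 0.0279 to 0.0322 FPKM.

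The 10 genes and all gene lists were chosen with earlier results of these data known, and 1 signalling gene is not reported here. Text names the 10 genes, all tested genes of the pathway lists, the 3 genes nearest in profile outside the lists, Sp1 and Sp3. The family genes under the filter, Ifnb1, Nlrp3, Il1b and the cell type markers named were chosen after their values were seen. Copies were sought with BLAST+ 2.17.0 among GENCODE transcripts with a minimum of 95% identity and 150 bases. Promoter sequences are from RefSeq (GRCm38.p6), placed in GRCm39 by exact match. Both the limma and the fragment steps were tested on simulated data. The remaining steps ran in Python 3.11.15 with SciPy 1.17.1, numba 0.67.0, pandas 2.3.3, NumPy 2.4.6 and Matplotlib 3.10.9. Alternatives were pseudocounts of 0.1 and 0.01, no filter, a filter of at least 5 FPKM, TPM, median-of-ratios and quantile scaling, robust eBayes, limma-voom, a replicate block, and the omission of 1 library at a time; limma-voom on all genes was added after seeing the data.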

Additional observations from a re-analysis of the deposited data

Results flagged for a closer look

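In 13 of 136 groups of 6 values (each of the 10 genes and 58 related genes in CTR and in dKO), 1 library lay well apart from the remaining 5; chance gives about 1 in 20, here 6.8. None of the 20 groups of the 10 GTPase genes was among them. In dKO3, Gm12250 was 15.9 FPKM (2.69 to 7.04 in the other dKO libraries), Gvin3 was 4.17 FPKM (0.196 to 1.53), Ptpn6 was 17.6 FPKM (8.72 to 10.3), Pycard was 4.90 FPKM (2.13 to 2.76) and Lgals8 was 32.3 FPKM (24.1 to 26.1). This is also the library with the highest sum of macrophage markers.

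In dKO5, Ifngr2 was 40.0 FPKM (28.7 to 32.0 in the other dKO libraries), Ifnar2 was 29.7 FPKM (15.1 to 19.8), Jak2 was 25.5 FPKM (17.5 to 20.3) and Casp4 was 12.6 FPKM (5.51 to 7.56). The same library was highest for Gbp2, Gbp5, Tgtp2 and Irf1. Sqstm1 was 429 FPKM in dKO1 (289 to 338 in the other dKO libraries). Among CTR libraries, Jak2 was 24.4 FPKM in CTR4 (32.4 to 36.1 in the others), Irf3 was 10.4 FPKM in CTR3 (9.46 to 9.77) and Ubqln1 was 53.6 FPKM in CTR6 (36.7 to 42.8).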

How the results depend on the processing

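All 10 genes rose in dKO, and 0 fell, past an adjusted p of 0.05 in each alternative in which they were tested; with a filter of at least 5 FPKM, Gbp5, Gbp9 and Tgtp2 were not tested and 7 of 7 were higher. The highest adjusted p of any of the 10 was 0.0122, for Gbp5 with no filter. The number also past a log2 fold change of 1.5 was 3 and depended on how low values were treated: it was 7 with a pseudocount of 0.1, 7 with 0.01, 7 with limma-voom on recovered fragments, filtered or not (the latter chosen after seeing the data), and 5 after rescaling to TPM. A smaller pseudocount enlarges by construction the change of genes with low FPKM. Leaving out a library gave 2 to 5, lowest (2) without CTR replicate 6, dKO replicate 3 or dKO replicate 5, where Iigp1 no longer passed, and highest (5) without dKO replicate 2; 10 of 10 stayed higher in each of these 12 fits. Of 58 pathway and other GTPase genes tested, 11 changed a call in at least 1 of 23 alternatives and 0 changed direction. F830016B08Rik, for example, did not pass with no filter (adjusted p = 0.0576 from limma) or without CTR replicate 1, CTR replicate 6 or dKO replicate 5. With median-of-ratios scaling the median of all genes was −0.02 in place of −0.10.

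CTR and dKO libraries share replicate numbers, but these pair nothing by the labels. Since no source states a pairing, the numbers were not treated as pairs. Deviations of same-numbered libraries from their group means correlated at 0.44, 0.16, −0.04, 0.56, 0.01 and −0.11 over genes. The highest correlation of each CTR library with a dKO library of another number was 0.11, 0.40, 0.30, 0.14, 0.23 and 0.54. Replicates 1 and 4 thus correlated most with their own number and the others did not, which does not settle whether the numbers pair libraries. With a replicate block, 10 of 10 genes were higher, 0 lower and 3 past both thresholds; outside the 10 genes, Jak1 (−0.17, adjusted p = 0.0256), Stat3 (−0.14, adjusted p = 0.0403) and Map1lc3b (0.36, adjusted p = 0.0182) passed in limma with the block only among these fits of all 12 libraries as deposited. Depth limited Tgtp2 in CTR (11 to 27 fragments a library), Gbp2b, Gbp10 and Ifnb1.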
